A study of Mus musculus with 8 samples.

Results

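The angiopoietin and Tie signalling genes examined here are 7 of the 53465 genes in the deposited table, namely Angpt1, Angpt2, Tek, Tie1, Ptprb, Svep1 and Foxo1. They were chosen by gene symbol, through the Ensembl identifier of each, and the list was drawn up when the lower level of Angpt1 in this same comparison was already known. The adjusted p of Angpt1 (0.0109, edgeR's quasi-likelihood test) is therefore the value behind the choice, and the group differences of all 7 genes are given as a description that supports nothing. No threshold was part of the rule, and all 7 genes passed the filter on low counts.

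Poly(A) RNA from the heart ventricles of mouse embryos (embryonic day 15.5) was sequenced in 4 WT replicates and in 4 replicates of the genotype Nrg-1flox;Cdh5-CreERT2, with 1 ventricle in each per the labels. In that genotype a tamoxifen-inducible Cre recombinase driven by the promoter of the endothelial cadherin gene Cdh5 acts on a floxed allele of Nrg1, the gene for the growth factor neuregulin 1, so that recombination is aimed at endothelial and endocardial cells while the RNA came from the whole tissue. The labels give neither the dose and day of tamoxifen, nor whether the WT embryos carried Cre or received tamoxifen, nor which ventricle was taken. They also do not say that each replicate came from a separate litter or embryo, so p-values measure the spread between these samples.

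The libraries held 16761763 to 24144272 expected counts, the units in which RSEM assigns reads to genes, and values below are CPM, in which counts are set to an equal library size after TMM scaling. The targeted gene, Nrg1, stood at 4.08 to 5.46 CPM in WT and at 5.36 to 6.80 CPM in the other group. Its log2 fold change was 0.34 (SE 0.12), so no loss of its RNA was seen. This level counts reads over the whole gene in whole tissue. It therefore cannot show whether the floxed allele was recombined in the targeted cells, and recombination was not tested. Libraries of the Nrg-1flox;Cdh5-CreERT2 genotype are called labelled-mutant throughout, after their label. Each direction is that of the labelled-mutant against the WT libraries. In 7 of the 8 libraries both Xist, the transcript of the inactive X chromosome, and Y-linked transcripts were present, and WT library 4 had Xist at 0.192 CPM. RNA from a single embryo would hold Xist or Y-linked transcripts but not both at such levels, so these 7 libraries go against the label of 1 ventricle per replicate, and where the mixture arose was not tested. The summed level of 4 Y-linked genes was 115, 69.3, 122 and 171 CPM in WT libraries 1 to 4 and 68.3, 42.9, 58.5 and 119.9 CPM in labelled-mutant libraries 1 to 4. In every library the ventricular light chain gene Myl2 (4632 to 5302 CPM) exceeded the atrial gene Sln (3.74 to 10.5 CPM). Some other atrial markers were far higher than Sln, such as Myl7 (231 to 298 CPM) and Myl4 (1232 to 1441 CPM). Comparing Myl2 with Sln is therefore only a coarse check of the tissue label.

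Angiopoietins are secreted ligands that control how quiescent and how tightly sealed a vessel is. Angpt1, made by cells around the endothelium such as mural, mesenchymal and myocardial cells, activates the receptor tyrosine kinase Tek (also called TIE2), whereas Angpt2, released by endothelial cells themselves, can block or activate it depending on context. Tie1 is a related receptor without a firmly assigned angiopoietin ligand of its own that works with Tek, Ptprb (VE-PTP) is the endothelial phosphatase that dephosphorylates Tek, and Svep1 is a large matrix protein that binds Tie1 and is needed for lymphatic development. Active Tek signals through PI3K and AKT, which keep the transcription factor Foxo1 out of the nucleus, and Foxo1 drives genes that include Angpt2. In the embryonic heart, Angpt1 and Tek are known for the growth of trabeculae and of the coronary vessels.

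The ligand genes are paralogs, and so are the receptor genes, so the stretch that holds the longest run shared by each pair was read from the GENCODE M21 transcripts to show how far a read can be told apart between them. Each sequence is 120 coding bases on GRCm38, with the longest run of bases shared by the pair in capitals. The Angpt1 and Angpt2 stretches end their coding sequences, in the fibrinogen-like domain that binds Tek, at chr15:42426973-42427092 (minus strand, exon 9 of 9) and chr8:18692051-18692170 (minus strand, exon 9 of 9). The Tek and Tie1 stretches lie in the kinase domain and span the junction of exons 17 and 18 of 23, at chr4:94859034-94859645 (plus strand) and chr4:118474339-118475468 (minus strand).
Angpt1: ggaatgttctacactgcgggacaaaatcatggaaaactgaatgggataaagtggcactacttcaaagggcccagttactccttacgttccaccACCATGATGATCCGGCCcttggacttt
Angpt2: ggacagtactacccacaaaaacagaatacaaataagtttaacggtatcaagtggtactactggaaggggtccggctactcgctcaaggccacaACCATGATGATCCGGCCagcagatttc
Tek: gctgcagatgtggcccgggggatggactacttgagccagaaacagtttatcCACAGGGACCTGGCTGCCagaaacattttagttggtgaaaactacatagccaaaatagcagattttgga
Tie1: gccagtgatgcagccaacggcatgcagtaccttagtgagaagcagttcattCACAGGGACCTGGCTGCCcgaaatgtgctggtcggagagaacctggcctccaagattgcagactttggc

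The longest run shared by the coding sequences of Angpt1 and Angpt2 was 17 bases, and 76 of the 120 positions in the stretches shown were identical. For Tek and Tie1 the longest shared run was 18 bases, and 81 of the 120 positions were identical. Reads were 60 bases long, so no coding read could match both genes of a pair without a mismatch. Untranslated regions were not compared.

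Among the ligands, Angpt1 (ENSMUSG00000022309, chromosome 15, 42424723 to 42676977, minus strand) stood lower in all labelled-mutant libraries. Its level was 36.5, 35.6, 30.0 and 31.4 CPM in WT libraries 1 to 4 and 22.9, 18.5, 20.3 and 24.3 CPM in labelled-mutant libraries 1 to 4. Every labelled-mutant library was below every WT library, and the gap between the groups, from 24.3 to 30.0 CPM, was close to the range within either group. The means were 33.4 ± 3.13 and 21.5 ± 2.59 CPM (SD, n = 4), a level 35.6% lower with a log2 fold change of -0.64 (SE 0.085, 95% confidence interval -0.83 to -0.46). Angpt1 rested on 412 to 806 expected counts per library, and counting error at the lowest of these is 4.92%. In bulk tissue, fewer cells of a type cannot be told apart from less RNA per cell.

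Angpt1 was the 1 gene of the 7 that was called at a false discovery rate (FDR) below 0.05, where 0.526% of the 15388 tested genes were called, and 0.214% were called lower. Since this call chose the list, nothing is read from these shares. The call was lost when the summed Y-linked level was added to the model (log2 fold change -0.60, edgeR's adjusted p = 0.0658). Angpt1 was called in each of the 8 fits that left out 1 library, with adjusted p up to 0.0486 without labelled-mutant library 3.

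The exons of Angpt1 share 737 bases with Gm17473, an antisense gene at 0.266 to 0.83 CPM, and its expected counts were not whole numbers in any of the 8 libraries. Within these 737 of the 5205 exonic bases of Angpt1, reads of the 2 genes can be told apart only if the counting used strand. Whether it did is not given in the sources used here.

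Angpt2 (ENSMUSG00000031465, chromosome 8, 18690263 to 18741562, minus strand) was the scarcest of the 7 genes per length, with 43 to 132 expected counts per library. It stood at 3.61, 3.78, 5.74 and 4.79 CPM in WT libraries 1 to 4 and at 2.58, 2.81, 2.01 and 4.12 CPM in labelled-mutant libraries 1 to 4. Labelled-mutant library 4 lay above WT libraries 1 and 2, so the groups overlapped. The means, 4.48 ± 0.987 and 2.88 ± 0.894 CPM (SD, n = 4), differed by a log2 fold change of -0.66 that was as large as that of Angpt1 but had a wider interval (SE 0.21, 95% confidence interval -1.11 to -0.20), and it was not called. The coefficient of variation was 22.0% in WT and 31.1% in labelled-mutant libraries, against 15.2% from counting at the lowest count. Angpt2 lies inside Mcph1, a gene on the opposite strand at 17.1 to 20.1 CPM, and shares no exonic bases with it.

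**Figure D1:**
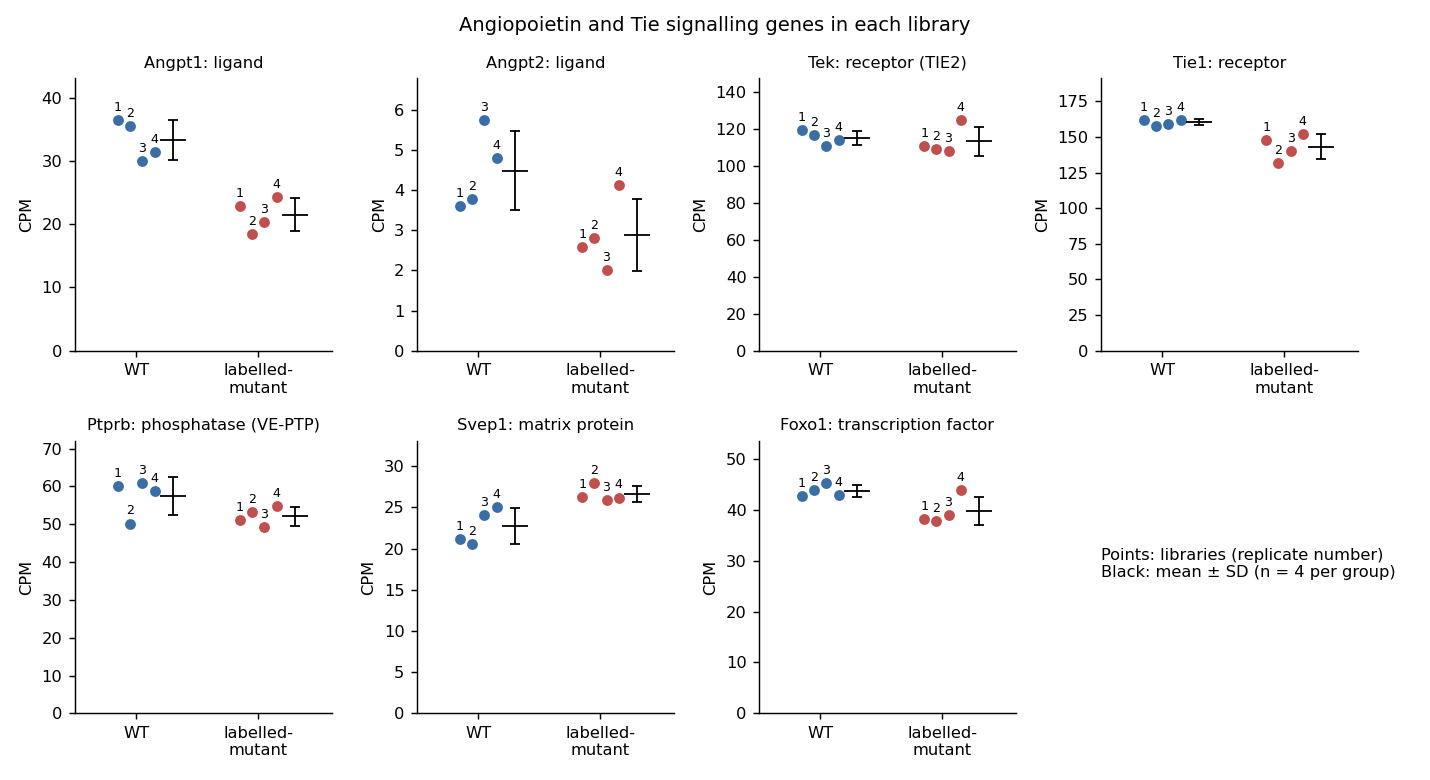
CPM of each of the 7 genes (vertical axes, from 0) in each WT and labelled-mutant library; points carry the replicate number and black marks are the mean ± SD (n = 4 per group). Angpt1 is at 30.0 to 36.5 CPM in WT and 18.5 to 24.3 CPM in the labelled-mutant group, whereas the groups of Tek overlap and Svep1 is higher in every labelled-mutant library than in any WT library.

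Of the receptors, Tek (ENSMUSG00000006386, chromosome 4, 94739289 to 94874976, plus strand) had nearly equal means in the groups. It was measured at 119.7, 117, 111 and 114 CPM in WT libraries 1 to 4 and 111, 109.5, 108 and 125 CPM in labelled-mutant libraries 1 to 4. Labelled-mutant library 4 was the highest of all 8 and the other 3 labelled-mutant libraries lay below the lowest WT value, so the groups overlapped. With means of 115 ± 3.67 and 113 ± 7.59 CPM (SD, n = 4), the log2 fold change was -0.029 (SE 0.044), and its 95% confidence interval of -0.13 to 0.067 leaves room for a difference of either sign.

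Tie1 (ENSMUSG00000033191, chromosome 4, 118471191 to 118490061, minus strand) was the most abundant of the 7 genes per length and the steadiest in WT. It stood at 162, 158, 159.5 and 162 CPM in WT libraries 1 to 4 and at 148, 132, 140.5 and 152 CPM in labelled-mutant libraries 1 to 4. The groups did not overlap, and the spread was wider among labelled-mutant libraries (coefficient of variation 6.23%) than among WT libraries (1.35%). The means were 160.3 ± 2.16 and 143 ± 8.91 CPM (SD, n = 4), which gives -0.17 as log2 fold change (SE 0.042, 95% confidence interval -0.26 to -0.075). Tie1 was not called over all 8 libraries but was called without labelled-mutant library 4 (edgeR's adjusted p = 0.0455).

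Ptprb (ENSMUSG00000020154, chromosome 10, 116275523 to 116389535, plus strand), the receptor phosphatase, stood at 60.1, 50.2, 61.0 and 58.7 CPM in WT libraries 1 to 4 and at 51.1, 53.2, 49.2 and 54.8 CPM in labelled-mutant libraries 1 to 4. The groups overlapped through WT library 2, which was lower than 3 of the 4 labelled-mutant libraries. Its means were 57.5 ± 4.95 and 52.1 ± 2.47 CPM (SD, n = 4), and the log2 fold change of -0.14 (SE 0.058) was not called.

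Svep1 (ENSMUSG00000028369, chromosome 4, 58042442 to 58206859, minus strand), the matrix protein that binds Tie1, was the only gene of the 7 with a higher mean in labelled-mutant libraries. It stood at 21.2, 20.6, 24.1 and 25.1 CPM in WT libraries 1 to 4 and at 26.3, 28.0, 25.9 and 26.2 CPM in labelled-mutant libraries 1 to 4. The groups did not overlap, although WT library 4 and labelled-mutant library 3 were less than 1 CPM apart. Its means were 22.7 ± 2.19 and 26.6 ± 0.938 CPM (SD, n = 4), and Svep1 was not called, at a log2 fold change of 0.23 (SE 0.065, 95% confidence interval 0.085 to 0.37). The gene shares 2244 exonic bases with Gm26889, to which no read was assigned in any library.

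Foxo1 (ENSMUSG00000044167, chromosome 3, 52268336 to 52353221, plus strand), the transcription factor held in check by AKT, stood at 42.6, 43.8, 45.3 and 42.9 CPM in WT libraries 1 to 4 and at 38.2, 37.8, 39.0 and 43.8 CPM in labelled-mutant libraries 1 to 4. Labelled-mutant library 4 lay within the WT range and the other 3 lay below it. The means were 43.6 ± 1.2 and 39.7 ± 2.8 CPM (SD, n = 4), which differed by -0.14 on the log2 scale (SE 0.048), a difference that was not called over all 8 libraries and was called without labelled-mutant library 4 (edgeR's adjusted p = 0.0499). Transcript levels do not show where the Foxo1 protein lay in the cell.

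Over the 7 genes, 6 log2 fold changes were below 0 and 1 was above, with a median of -0.14, beside a median of -0.0012 over all tested genes, of which 50.6% were below 0. The groups did not overlap for 3 of the 7 (Angpt1, Tie1 and Svep1), beside 6.05% of all tested genes. These counts include Angpt1, whose known difference led to the list, so nothing is read from them. Labelled-mutant library 4, the shallowest library, was the highest of its group for Angpt1, Angpt2, Tek, Tie1, Ptprb and Foxo1. It also had the highest Y-linked sum and the lowest cardiomyocyte marker sum of its group, at 46858 CPM where the other 3 were at 53062 to 53338 CPM. Whether either has a part in the levels of these 6 genes was not tested.

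**Figure D2:**
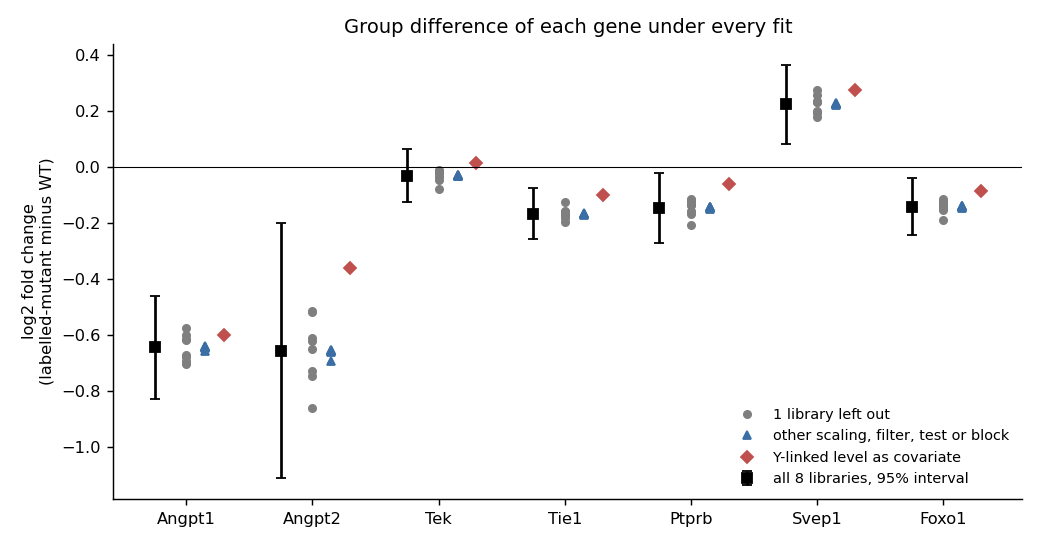
Log2 fold change of each gene (labelled-mutant minus WT, vertical axis) over all 8 libraries with its 95% confidence interval (black), with 1 library left out (grey), under another scaling, filter, test or replicate block (blue), and with the Y-linked sum in the model (red). Angpt1 stays between -0.70 and -0.57, Angpt2 ranges from -0.86 to -0.36, and Tek lies on either side of 0, at 0.017 with the covariate.

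Levels were compared between the genes per kilobase of exon, which puts the receptors well above their ligands. The length is that of all annotated exons of a gene merged, not of the transcripts present here. The order of genes at close levels, such as Angpt1, Foxo1 and Ptprb, depends on that choice. In WT libraries the mean was 32.6 CPM per kb for Tie1 and 24.5 for Tek. Angpt1 followed at 6.41 CPM per kb, then Foxo1 at 5.04 and Ptprb at 4.31, and Svep1 at 1.41 and Angpt2 at 1.21 came last. Neighbours in this order were apart in all 4 WT libraries except Svep1 and Angpt2, whose ranges overlapped.

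In labelled-mutant libraries Angpt1 and Foxo1 changed places in the order. Angpt1 per kb exceeded Foxo1 per kb in 4 of 4 WT libraries and in 0 of 4 labelled-mutant libraries, where their means were 4.13 and 4.58 CPM per kb and their ranges overlapped. This change of order follows from the lower level of Angpt1 that led to the list, so nothing is read from it. Svep1 (1.65 CPM per kb) exceeded Angpt2 (0.78 CPM per kb) in 4 of 4 labelled-mutant libraries and in 3 of 4 WT libraries. Tie1 (29.1 CPM per kb) and Tek (24 CPM per kb) stayed above the other 5 genes, and Ptprb (3.9 CPM per kb) lay within the range of Angpt1.

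**Figure D3:**
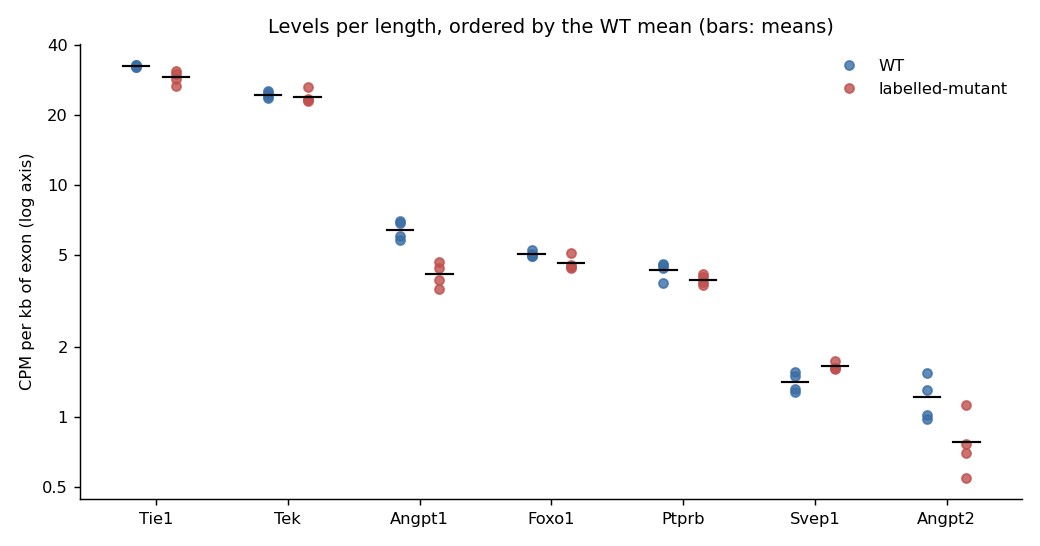
CPM per kilobase of exon (vertical log axis) of the 7 genes in each WT (blue) and labelled-mutant (red) library, ordered by the WT mean; black bars are group means. The means of Tie1 and Tek are 32.6 and 24.5 CPM per kb in WT and 29.1 and 24 in labelled-mutant libraries, and Angpt1 lies above Foxo1 in each WT library and below it in each labelled-mutant library.

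Ratios within a library set the ligands and receptors against each other. The Angpt1 to Angpt2 ratio per kb was 7.16, 6.67, 3.71 and 4.65 in WT libraries 1 to 4 and 6.30, 4.67, 7.16 and 4.18 in labelled-mutant libraries 1 to 4. Its means of 5.55 ± 1.64 and 5.58 ± 1.39 (SD, n = 4) were close together and the groups overlapped over nearly their whole range.

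Relative to its receptor, Angpt1 was lower in every labelled-mutant library. The Angpt1 to Tek ratio per kb was 0.276, 0.275, 0.244 and 0.250 in WT libraries 1 to 4 and 0.187, 0.153, 0.169 and 0.176 in labelled-mutant libraries 1 to 4. With Tek nearly equal between the groups, the Angpt1 to Tek ratio restates the level of Angpt1 that led to the list and supports nothing further. The Tek to Tie1 ratio was 0.769, 0.774, 0.727 and 0.734 in WT libraries 1 to 4 and 0.779, 0.867, 0.804 and 0.856 in labelled-mutant libraries 1 to 4, with labelled-mutant library 1 just above the WT range. The ratio of the phosphatase to its substrate, Ptprb to Tek, averaged 0.176 ± 0.0177 in WT and 0.163 ± 0.00683 in labelled-mutant libraries (SD, n = 4), and the groups overlapped.

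Because Tek, Tie1, Ptprb and Angpt2 are made largely by endothelial cells, their levels were also set against the summed level of 12 other endothelial markers, which was 1273 to 1322 CPM in WT and 1203 to 1279 CPM in the labelled-mutant group. Of these 12 markers 10 were below 0 in log2 fold change (median -0.11), none was called and none was at 0. Endocardial markers (8 of 8 below 0, median -0.11, summed 478 to 543 CPM in WT and 467 to 523 CPM in the labelled-mutant group) also had no call. Of the coronary endothelial markers, 7 of 7 tested were below 0 (554 to 597 and 526 to 579.7 CPM), and Aplnr, the apelin receptor of venous and sprouting endothelium, was called (log2 fold change -0.31, edgeR's adjusted p = 0.0118). The unadjusted p of edgeR's test was below 0.05 for 7 of the 12 endothelial, 4 of 8 endocardial and 1 of 7 tested coronary endothelial markers. Over all 15388 tested genes it was below 0.05 for 1622. The part of endothelial content in the levels of Tie1, Ptprb, Foxo1 and Angpt2 was not tested beyond the ratios given here.

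Per 1000 CPM of these 12 markers, Tie1 stood at 128, 122, 124 and 122 CPM in WT libraries 1 to 4 and at 118, 106, 117 and 119 CPM in labelled-mutant libraries 1 to 4. The groups of Tie1 still did not overlap, and the difference in log2 of the mean was -0.11 in place of -0.17 in the fit. Tek per 1000 marker CPM averaged 89.4 ± 3.63 in WT and 90.9 ± 4.45 in labelled-mutant libraries (SD, n = 4). On this scale the groups also overlapped for Ptprb (44.5 ± 4.03 and 41.8 ± 1.2), Foxo1 (33.8 ± 1.19 and 31.9 ± 1.88) and Angpt2 (3.46 ± 0.760 and 2.30 ± 0.662). Angpt1, at 25.8 ± 2.64 and 17.2 ± 1.80, and Svep1, at 17.6 ± 1.54 and 21.4 ± 0.880 (SD, n = 4), did not overlap on it either. Angpt1 is made outside the endothelium, so this scale does not adjust it for its source cells. Its difference is also the one that led to the list. For Svep1 the difference in log2 of the mean was 0.28 on this scale, against 0.23 in the fit.

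**Figure D4:**
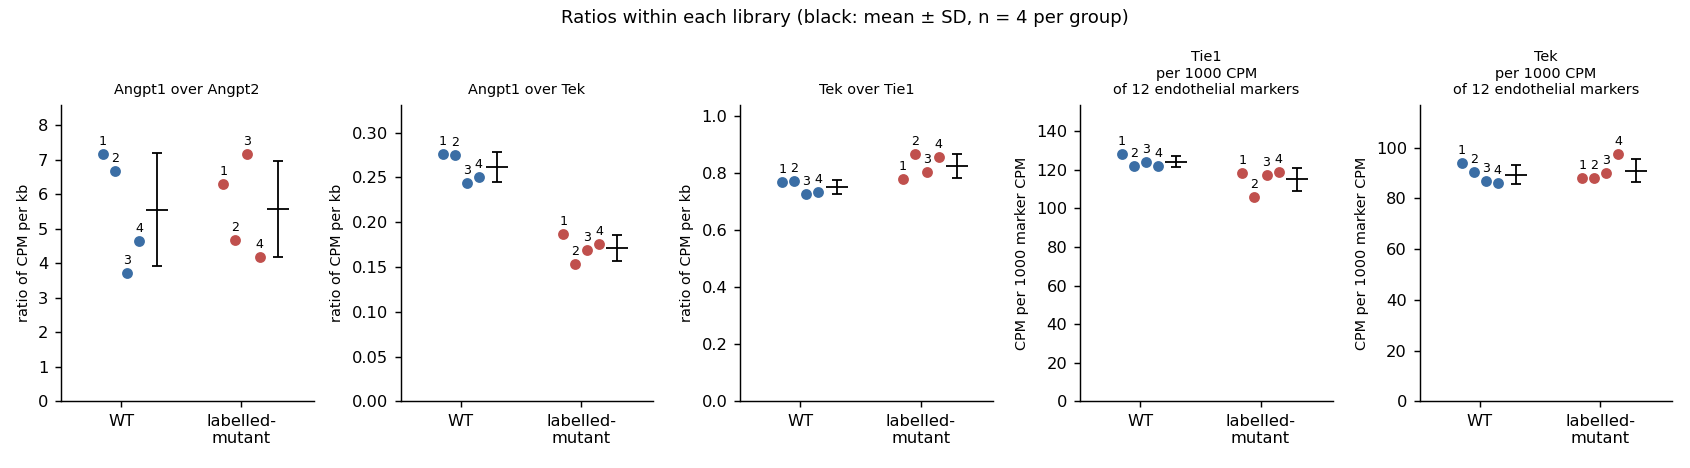
Ratios within each library (vertical axes, from 0): Angpt1 over Angpt2, Angpt1 over Tek and Tek over Tie1, each per kb of exon, and Tie1 and Tek per 1000 CPM of 12 endothelial markers; points carry the replicate number and black marks are the mean ± SD (n = 4 per group). Angpt1 over Tek is at 0.244 to 0.276 in WT and 0.153 to 0.187 in labelled-mutant libraries, while Angpt1 over Angpt2 overlaps widely.

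Angpt1 is made outside the endothelium, so the markers of its likely sources stand beside it. Mural markers were below 0 in log2 fold change for 9 of 10 genes (median -0.11). Their sum was 1920 to 2049 CPM in WT and 1977 to 2103 CPM in the labelled-mutant group. This sum was mostly Acta2, the 1 mural marker above 0 (log2 fold change 0.12), so it says little of the other 9. Cardiomyocyte markers split evenly, with 5 of 10 below 0 (median 0.0051, summed 47927 to 52990 and 46858 to 53338 CPM). Fibroblast and epicardial markers had 6 of 14 below 0 (median 0.0031, summed 5646 to 6643 and 5457 to 6593 CPM). No gene of these 3 lists was called. The unadjusted p of edgeR's test was below 0.05 for 5 of 10 mural, 1 of 10 cardiomyocyte and 3 of 14 fibroblast and epicardial markers. Over all 15388 tested genes it was below 0.05 for 1622.

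Atrial markers were below 0 for all 16 genes (median -0.19), with Kcnj3 (log2 fold change -0.46, edgeR's adjusted p = 0.0261) and Cacna2d2 (-0.59, adjusted p = 0.0059), both ion channel genes, called lower. Over all tested genes 0.214% were called lower. The unadjusted p of edgeR's test was below 0.05 for 7 of the 16 atrial markers, beside 1622 of all 15388 tested genes. Their sum was 5650, 6312, 5226 and 6323 CPM in WT libraries 1 to 4 and 5229, 5500, 5028 and 5856 CPM in labelled-mutant libraries 1 to 4, so the groups overlapped. The list includes Bmp10, Nppa and Gja5, which trabecular cells also express. Erythroid markers had 1 of 9 below 0 (summed 4294 to 9396 and 5877 to 10011 CPM) and macrophage markers 2 of 10 (122 to 169.6 and 131 to 194 CPM), with no call. No marker of any list was at 0 in all libraries, and the part of any of these cell types in the level of Angpt1 was not tested.

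Beyond the 7 genes, 90 further genes of the pathway were taken in 6 lists, of which 86 passed the filter. They include the Tek adaptors, the PI3K and AKT cascade, FOXO targets, the transcription factors that act on the Tie receptor genes, and lymphatic genes. Of the 86, 2 were called (2.33%, beside 0.526% of all tested genes), both lower, and 50 were below 0, with a median log2 fold change of -0.011. The groups did not overlap for 12 of the 86 (14%, beside 6.05% of all tested genes). Since the lists were drawn up with earlier results of these data known, these shares are a description.

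The called genes were Nos3 and Elk3. Nos3, the endothelial nitric oxide synthase that AKT activates by phosphorylation, fell from 67.4 ± 1.43 to 60.2 ± 0.525 CPM (SD, n = 4; log2 fold change -0.16, SE 0.029, edgeR's adjusted p = 0.0383), and every labelled-mutant library, at 59.7 to 60.9 CPM, was below the WT range of 65.5 to 68.7 CPM. Elk3, an ETS family repressor of endothelial cells, fell from 97.9 ± 1.79 to 88.1 ± 2.48 CPM (SD, n = 4; log2 fold change -0.15, SE 0.030, adjusted p = 0.046), with ranges of 95.6 to 99.3 and 85.8 to 91.4 CPM. Neither was called when any 1 of the 4 WT libraries or labelled-mutant libraries 1, 2 or 3 was left out. In those 7 fits the adjusted p was 0.0607 to 0.126 for Nos3 and 0.0845 to 0.159 for Elk3, and after adjusting for the Y-linked level it was 0.146 and 0.268. With limma voom neither was called (adjusted p = 0.0522 for Nos3 and 0.0583 for Elk3), and with the replicate number as a block Nos3 was not called (adjusted p = 0.0571). Nos3 and Elk3 are endothelial genes, and of the 12 endothelial markers described above 10 were below 0 (median log2 fold change -0.11). The part of endothelial content in the levels of Nos3 and Elk3 was not tested.

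Among the 17 factors that act on the Tie receptor genes, 15 were below 0 (median -0.056, summed 1039 to 1077 CPM in WT and 1005 to 1060 CPM in the labelled-mutant group), and Elk3 was the only call. Erg, an ETS factor that defines endothelial cells, was at 30.9 ± 0.795 and 27.1 ± 0.855 CPM (SD, n = 4) and was not called, at a log2 fold change of -0.19 (SE 0.043). For Epas1 (HIF2A) the log2 fold change was -0.16. The 2 genes above 0 were Foxc1 (0.16) and Hif1a (0.059), the other HIF alpha subunit, neither of them called. Erg and Nfatc1 of this list also stand among the endothelial and endocardial markers, whose sums are given above.

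The 16 tested adaptors, integrins and proteases around Tek were evenly divided, with 9 below 0, a median of -0.0050 and no call. Itgav, the integrin alpha V subunit, had the largest difference, with 74.2 ± 3.47 CPM in WT and 61.7 ± 6.46 CPM in the labelled-mutant group (SD, n = 4; log2 fold change -0.27, SE 0.061) and was not called. It was called without a filter, with DESeq2 and without labelled-mutant library 4. Its partner Itgb3 had a log2 fold change of -0.17. Above 0 were Amotl2, a regulator of junctions and of YAP, with 123 ± 3.54 and 136 ± 5.46 CPM (SD, n = 4; log2 fold change 0.14) and no overlap, and Tnip2, the Tek-binding inhibitor of NF-kB, with 0.11.

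The PI3K and AKT list gave 9 of 16 below 0 (median -0.0061), with Nos3 as its call. Its summed level was 1653 to 1659 CPM in WT and 1641 to 1668 CPM in the labelled-mutant group. Inpp5d, a lipid phosphatase of blood cells, had a log2 fold change of -0.24 (SE 0.11), and Pik3r2, a regulatory PI3K subunit, and Mtor had 0.11 and 0.056, with no call. FOXO family members and targets had 8 of 20 below 0, a median of 0.019 and no call. At a mean log2 CPM of at least 1, the 2 largest differences below 0 were Fbxo32 (atrogin-1) at -0.24 (SE 0.055) and Txnip at -0.14 (SE 0.036). The 2 largest above 0 were Gadd45a at 0.27 (SE 0.13) and Cited2 at 0.20 (SE 0.042). Without a filter and with DESeq2, Fbxo32, Txnip and Cited2 were called and Gadd45a was not.

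Angiopoietin-like genes had 4 of 6 below 0 (median -0.14) and no call. Angptl7 (log2 fold change -0.22, SE 0.16) and Angptl1 (-0.21, SE 0.13) were below 10 CPM in every library. Angptl4, a lipoprotein lipase inhibitor, averaged 8.68 ± 0.616 CPM in WT and 10.4 ± 0.892 CPM in the labelled-mutant group (SD, n = 4; log2 fold change 0.25, SE 0.088), and Fgl2 had a log2 fold change of 0.079. The lymphatic list, in which Svep1 would fall by function, had 5 of 11 below 0, a median of 0.028 and no call. In it the receptor gene Flt4 (VEGFR3) was at 37.1 to 42.3 CPM in WT and 34.1 to 40.4 CPM in the labelled-mutant group (log2 fold change -0.15, SE 0.059) and Lyve1 was at -0.17 (SE 0.16), while Adamts14 and Adamts3, proteases that act on the VEGFC precursor, were at 0.15 and 0.11.

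The third mouse angiopoietin gene, Angpt4, did not pass the filter, at 0 to 0.22 CPM. Fgl1 (up to 0.185 CPM) and Grb7 (up to 0.351 CPM) did not pass it either, so no difference in these genes was detectable at this depth.

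**Figure D5:**
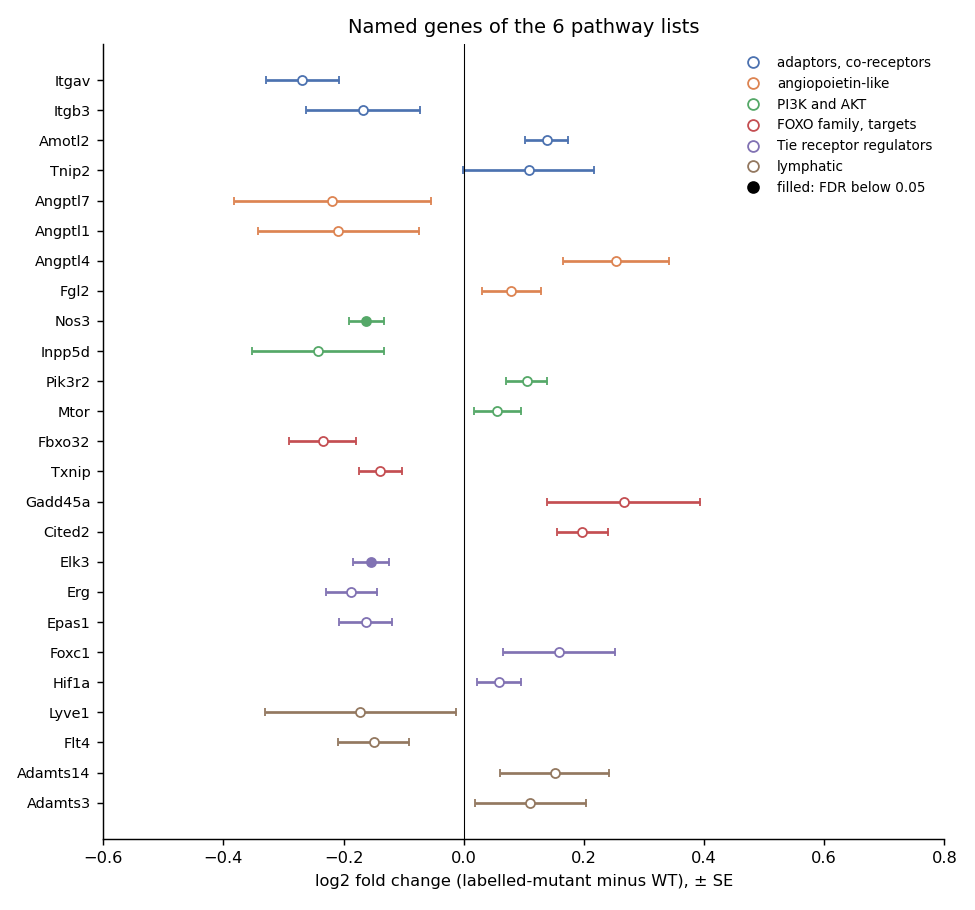
Log2 fold change (labelled-mutant minus WT, horizontal axis) ± SE of the named genes of the 6 pathway lists, coloured by list, with filled points for adjusted p below 0.05. Nos3 (-0.16) and Elk3 (-0.15) are the filled points, and Itgav (-0.27) and Gadd45a (0.27) lie farthest from 0 on either side.

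Levels were compared across the 8 libraries over 12856 genes, and genes with only a clone or model number as symbol were counted but not named. Of the others, those most like Angpt1 were Nub1 (Pearson's r of log2 CPM 0.989), Lef1 (0.984), Palm (0.977), Ramp2 (0.975) and Clic1 (0.974). In all, 65 genes had r above 0.9 with Angpt1. Those most like Tek, chosen in the same way, were Ssr1 (0.984), Cnpy4 (0.962), Rgs3 (0.961), Sncaip (0.952) and Igfbp2 (0.946). In all, 28 genes had r above 0.9 with Tek. These coefficients are a description over 8 points that share the difference between the groups, library depth and tissue makeup.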

How the data were processed

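The deposited values are expected counts for each Ensembl gene (RSEM 1.3.1 and cutadapt per the submitters' processing notes; build GRCm38), with Ensembl release 91 in the table's name. The aligner and the strand setting are not given in the sources used here. Libraries were directional, with single reads of 60 bases. Of the deposited values, 18.1% were not whole (tolerance 0.005).

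Expected counts were rounded, filtered with filterByExpr by group (15388 of 53465 genes kept), scaled by TMM and compared with edgeR 4.0.16 (quasi-likelihood test, two-sided, Benjamini-Hochberg adjustment over all tested genes, FDR 0.05) in R 4.3.3. Symbols, positions and exonic lengths came from GENCODE M21 on the same build, which matched 53360 identifiers. Each SE came from the F statistic. The fit was tested on simulated data for 15388 genes, of which 15217 passed the filter: 87 of 100 differences of log2 fold change 1 and 57 of 100 of 0.5 were recovered, and 10 of 154 calls were false.

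The 7 genes, the pathway and marker lists and the tests were chosen with earlier results of these data known. Named were the 7 genes, Nrg1, in each pathway list the called genes and the 2 largest differences in each direction at a mean log2 CPM of at least 1, the 5 genes most like Angpt1 and Tek (pseudocount 0.5 CPM), and markers of a list that moved with them. Genes with only a clone or model number as symbol were left out when the 5 most alike were named. The 15 alternatives were RLE scaling, no filter, a minimum CPM of 1 in 4 libraries, DESeq2 1.42.0, limma 3.58.1 (voom), the replicate number as a block, the Y-linked level as a covariate, and leaving out each library.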

Additional observations from a re-analysis of the deposited data

Results flagged for a closer look

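In 7 of 120 groups of 4 values, a single library stood apart from the other 3 by Dixon's criterion, where chance gives about 6, and no cause was tested. Tek reached 124.5 CPM in labelled-mutant library 4 (others 108.3 to 110.6). In the same library the factors that act on the Tie receptor genes summed to 1060 CPM (others 1005 to 1014) and the cardiomyocyte markers to 46858 CPM (others 53062 to 53338). Tie1 per 1000 CPM of endothelial markers was 105.9 in labelled-mutant library 2 (others 116.8 to 118.7). Epas1 was at 84.06 CPM in labelled-mutant library 3 (others 87.88 to 88.39) and Lyve1 at 6.066 CPM in labelled-mutant library 1 (others 9.187 to 9.711). The 15 endothelial markers that include Tek, Tie1 and Ptprb summed to 1656 CPM in WT library 4 (others 1613 to 1617).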

How the results depend on the processing

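Over all tested genes, 81 were called, 338 without a filter, 198 with DESeq2, 16 with the Y-linked covariate, and 11 (without labelled-mutant library 3) to 142 (without labelled-mutant library 4) with 1 library left out. Of the 7 genes, 1 was called, 3 without a filter (Angpt1, Angpt2 and Tie1), 2 with DESeq2 (Angpt1 and Tie1), 0 with the covariate, and 1 to 3 with 1 library left out, the 3 being Angpt1, Tie1 and Foxo1 without labelled-mutant library 4. Of the pathway genes, 2 were called, 8 without a filter, 7 with DESeq2, 0 with limma voom, 1 with the replicate block (Elk3, with Nos3 lost), 0 with the covariate, and 0 to 3 with 1 library left out. The sign reversed with the covariate for Tek (log2 fold change 0.017) and Tnip2 (-0.031). The causes were not tested. Angpt1 was called in 14 of 15 alternatives (log2 fold change -0.70 to -0.57). The log2 fold change ranged over the alternatives from -0.86 to -0.36 for Angpt2, -0.20 to -0.10 for Tie1, -0.20 to -0.058 for Ptprb, 0.18 to 0.28 for Svep1 and -0.19 to -0.084 for Foxo1. Same-numbered libraries of the groups correlated at r of 0.040 to 0.12 in their deviations from the group means and differently numbered ones at -0.093 to 0.023. Every library thus correlated best with its own number, a hint from the data, but the labels do not say what a number marks and not every r passed 0.1, so the block stayed an alternative. With the replicate block 93 genes were called and Angpt1 had adjusted p = 0.0114. Angpt2 had 43 to 132 counts per library, where counting error alone is 15.2% at the lowest count.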
